A study of Homo sapiens with 4 samples.

Results

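Dense clusters of FAIRE sites were stretches of the genome in which listed sites of open chromatin followed each other closely. FAIRE (formaldehyde-assisted isolation of regulatory elements) recovers the DNA that stays free in the aqueous phase after crosslinking, which is mostly DNA without nucleosomes, and the recovered fragments were sequenced. Sites of both lists on chromosomes 1 to 22 and X were merged where they overlapped, merged sites with a gap under 10 kb were joined into a chain, and chains of 6 or more merged sites were kept as clusters. Of 33972 chains, 144 met this rule, 0.424% of all chains, and they held 1021 of 46915 merged sites. The clusters were chosen by the positions of the listed sites, so density, span and the number of sites per cluster are given as description and support nothing.

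Both lists came from H295R/TR SF-1, a line derived from human H295R adrenocortical carcinoma cells into which an SF-1 copy driven by a doxycycline-inducible promoter had been placed. The basal list came from cells that received no doxycycline and express SF-1 from their own gene, and the overexpression list came from cells of the same line that were given doxycycline for 3 days. Each condition had 1 FAIRE library and the cells are a single clone, so no difference between the lists has a replicate check, no test between conditions exists, and the intervals given here cover counting error only. Read counts are not part of the lists, which leaves the depth of either library unknown. The 2 input libraries are not analysed here.

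SF-1 (NR5A1) is a nuclear receptor of steroidogenic tissue that binds DNA as a monomer and switches on the genes of steroid hormone synthesis. Open sites lie mainly at promoters and at enhancers. Promoters crowd together where genes are dense, and some gene families, such as the HOX genes, which set position along the body axis, and the replication-dependent histone genes, which supply histones in S phase, lie side by side on the chromosome. Enhancers also crowd together, often inside the introns of long genes. A cluster of open sites can therefore hold many promoters, many distal elements of a single gene, or both.

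The identity of the cells was looked for at 8 adrenocortical genes, counting sites within 10 kb of the gene start. STAR, which carries cholesterol into mitochondria, had 1 basal and 3 overexpression sites. CYP11A1, the side-chain cleavage enzyme, had 3 and 4, CYP17A1, HSD3B2 and CYP21A2 had 1 in each list, NR5A1 had 1 basal site only, the ACTH receptor gene MC2R had 1 overexpression site only, and the HDL receptor gene SCARB1 had none. None of these 8 genes lay in a cluster.

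Sites of 4 clusters are printed here from the GRCh37 (hg19) reference, because the repeats, motifs and base composition that the results turn on can be read in them. Capitals mark matches to the SF-1 motif (CAAGGTCA or CAAGGCCA) and to the AP-1 motif (TGACTCA or TGAGTCA), both searched on both strands, and in the chromosome 16 site they mark the pentamer ATTCC. A match is a description of the letters, not a bound site. The SF-1 motif was found in 13.3% and the AP-1 motif in 6.70% of all merged sites. The first sequence comes from the cluster with the most sites (chr16:46404625-46404924, intergenic, listed in overexpression only), which was made of pentamer repeats. The second lies in an intron of ODAD1 (chr19:48820501-48820799, listed in both conditions), in the largest cluster without any condition-only site. The third lies 2669 bp from a start site of FDXR (chr17:72871700-72871999, intergenic, listed in the basal condition only), the only steroidogenic gene of a list of 18 with its start in a cluster. The fourth lies in an intron of RPGRIP1L (chr16:53726900-53727199, basal list only), in the cluster with the most basal-only sites. All are given on the plus strand.
chromosome 16 repeat site: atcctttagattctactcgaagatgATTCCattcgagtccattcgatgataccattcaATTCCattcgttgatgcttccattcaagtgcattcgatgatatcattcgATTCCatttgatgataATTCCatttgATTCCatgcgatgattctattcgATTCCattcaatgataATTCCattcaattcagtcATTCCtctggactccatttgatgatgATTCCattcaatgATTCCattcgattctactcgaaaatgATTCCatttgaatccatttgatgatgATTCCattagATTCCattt
ODAD1 intron site: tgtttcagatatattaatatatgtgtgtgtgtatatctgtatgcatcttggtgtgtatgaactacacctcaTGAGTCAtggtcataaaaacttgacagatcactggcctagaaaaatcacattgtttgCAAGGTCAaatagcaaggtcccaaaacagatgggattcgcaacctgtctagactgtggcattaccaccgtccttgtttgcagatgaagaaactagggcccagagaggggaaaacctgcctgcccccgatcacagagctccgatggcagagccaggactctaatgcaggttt
FDXR upstream site: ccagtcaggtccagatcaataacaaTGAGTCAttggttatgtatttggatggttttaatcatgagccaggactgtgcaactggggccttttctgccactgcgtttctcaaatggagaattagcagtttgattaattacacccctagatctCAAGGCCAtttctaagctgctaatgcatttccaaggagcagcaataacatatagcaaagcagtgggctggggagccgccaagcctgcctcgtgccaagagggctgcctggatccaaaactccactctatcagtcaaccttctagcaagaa
RPGRIP1L intron site: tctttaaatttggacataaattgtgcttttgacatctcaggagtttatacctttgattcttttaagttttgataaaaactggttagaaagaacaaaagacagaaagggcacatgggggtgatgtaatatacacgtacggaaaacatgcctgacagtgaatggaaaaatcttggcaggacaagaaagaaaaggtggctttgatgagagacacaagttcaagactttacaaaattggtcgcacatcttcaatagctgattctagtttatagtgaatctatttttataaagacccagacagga
The ODAD1 and FDXR sites were chosen for printing because they hold an SF-1 motif, so that match is not a result. Each also held an AP-1 match. The SF-1 motif was in 2 of the 8 sites of the ODAD1 cluster and in 1 of the 6 of the FDXR cluster. The RPGRIP1L site held neither, and 32.9% of its bases were G or C. The chromosome 16 site held 13 copies of ATTCC on the printed strand within 300 bases, and 79.4% of its 31-base words occurred more than once in the reference.

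Most clusters were small. Of the 144 clusters, 81 held exactly 6 merged sites, 52 held 7 to 9 and 11 held 10 or more, and the largest held 25. The clusters spanned 4649 to 58549 bp with a median of 23799 bp, 3.52 Mb in all, and the sites themselves covered 8.92% of that span. The median gap between neighbouring sites inside a cluster was 3101 bp, against 26051 bp over all merged sites. The clusters were thus rows of short, separately listed sites with longer unlisted DNA between them.

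**Figure D1:**
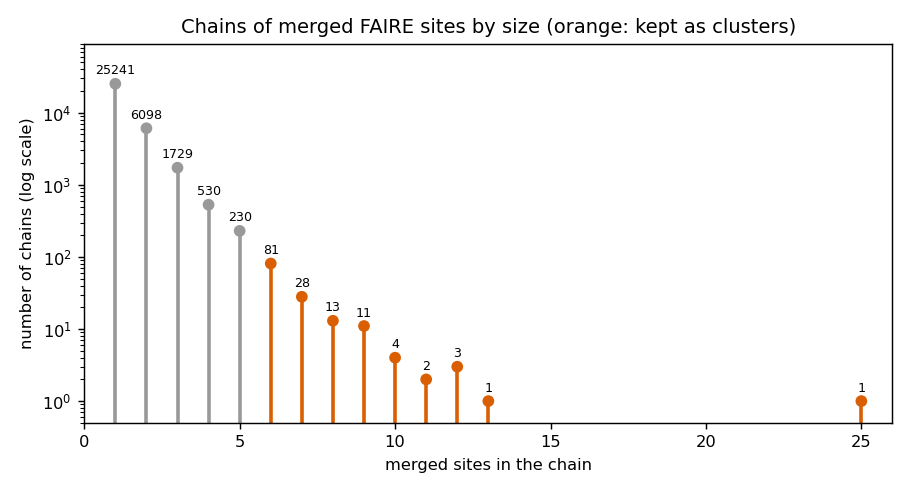
The number of chains (vertical axis, log scale) is plotted against the number of merged sites in the chain, with chains kept as clusters in orange. The numbers drop from 25241 single sites to 230 chains of 5 and 81 clusters of 6, and a single cluster of 25 stands far to the right of the next, at 13.

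There was no break at the limits of the rule. Outside them, 230 chains held exactly 5 merged sites, and inside, 81 held exactly 6. Of the sites in these chains, 47.0% and 47.1% were in both lists, and 42.1% and 42.4% lay within 1 kb of a start site. Of 877 gaps inside clusters, 47 measured 9 to 10 kb, and of 286 gaps that flanked a cluster, 18 measured 10 to 11 kb.

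Both lists entered the clusters. Of the basal list, 765 of 34413 sites (2.22%, exact 95% interval 2.07 to 2.38) lay in clusters, and of the overexpression list 780 of 31201 (2.50%, 2.33 to 2.68). All 144 clusters held a basal site and all but 1 held an overexpression site. Of the 1021 merged sites in clusters, 516 (50.5%, 47.4 to 53.6) were in both lists, 244 (23.9%, 21.3 to 26.6) were basal-only and 261 (25.6%, 22.9 to 28.4) were overexpression-only. Among all merged sites these shares were 39.6%, 33.6% and 26.8%.

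The balance of condition-only sites in clusters rested in part on a single locus. The number of overexpression-only sites divided by that of basal-only sites was 1.07 in clusters and 0.793 outside. Without the chromosome 16 cluster described below, which gave 17 overexpression-only sites and no basal-only site, both classes numbered 244 and the ratio was 1.00.

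The share of sites found in both lists was larger in longer chains, mainly away from promoters. It was 36.5% for single sites, 42.2% in chains of 2 to 3, 46.0% in chains of 4 to 5 and 50.5% in clusters. Within 1 kb of an annotated transcription start site, single sites (61.3%, 60.1 to 62.5) and cluster sites (62.05%, 57.5 to 66.5) had nearly the same share. Farther than 1 kb, the share was 27.8% (27.2 to 28.5) for single sites, 31.8% and 36.4% in the intermediate chains, and 40.8% (36.6 to 45.0) in clusters. More cluster sites lay within 1 kb of a start site (45.9%, 42.8 to 49.0) than single sites (25.9%, 25.4 to 26.5), so the pooled share also carries this difference.

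**Figure D2:**
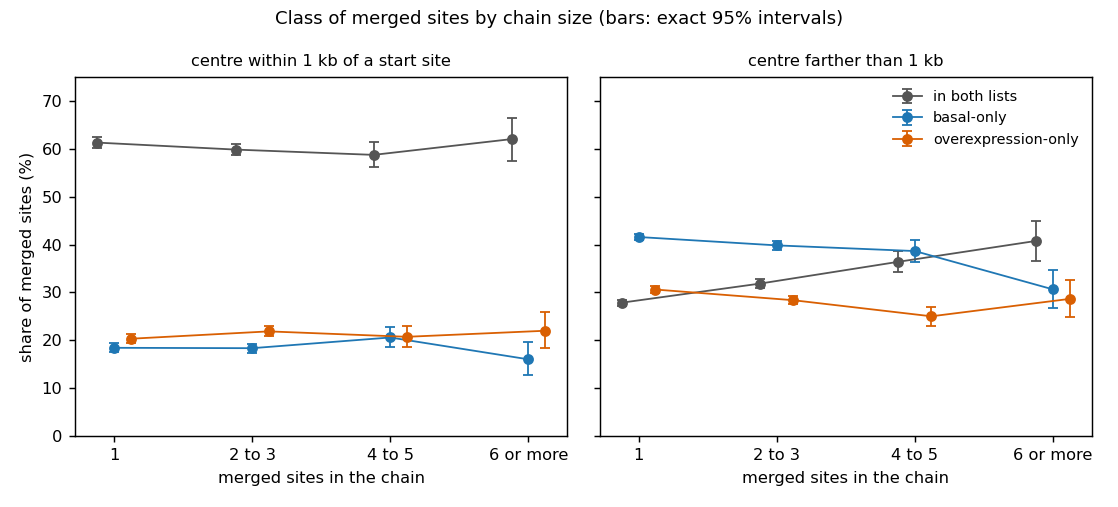
The share of merged sites in both lists (grey), basal-only (blue) and overexpression-only (orange) is plotted against chain size, for sites within 1 kb of a start site (left) and farther away (right), with exact 95% intervals as bars. Near start sites the grey points stay between 58.7% and 62.05%, and farther away they go from 27.8% to 40.8% with chain size.

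Place in the list moved with chain size too. The files number the sites in file order without stating what set the order, and early sites are wide: single basal sites in the first 10% of the list had a median width of 399 bp and those in the last 25% had 149 bp. Cluster sites of the basal list had their median at 35.3% of the list length and single sites at 53.9%, and in the overexpression list the medians were 36.4% and 54.9%. At equal place in the basal list, the shares of cluster and of single sites that were in both lists were 97.9% (94.0 to 99.6) and 95.3% in the first 10%, 77.4% (70.3 to 83.6) and 80.5% at 10 to 25%, 66.1% (59.0 to 72.8) and 58.8% at 25 to 50%, 52.7% (44.3 to 61.0) and 40.3% at 50 to 75%, and 38.9% (29.9 to 48.6) and 26.3% in the last 25%. In the overexpression list they were 93.2% (87.9 to 96.7) and 97.04%, 79.3% (72.0 to 85.5) and 84.0%, 63.7% (56.7 to 70.3) and 65.7%, 50.9% (43.1 to 58.6) and 47.6%, and 40.6% (31.1 to 50.5) and 33.9%. The share of single sites lay below the interval of cluster sites in the 3 later parts of the basal list. For overexpression sites it lay above that interval in the first 10% and within it elsewhere. How far list place accounts for the pooled difference was not tested.

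Clusters lay where genes are dense. Protein-coding genes had 70.8 starts per Mb inside clusters and 6.62 per Mb over the genome. This is partly the same fact as the density of sites, since clusters held 290.4 merged sites per Mb and the genome 15.5, and per protein-coding start clusters held 4.10 merged sites against 2.33 over the genome. The 1 Mb around a cluster centre held a median of 20 protein-coding starts (quartiles 9 and 36), and the 1 Mb around single sites a median of 7 (quartiles 3 and 12).

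Windows of 1 Mb gave the same order. Windows without a protein-coding start had 0.550 clusters per 100 windows, those with 11 to 20 starts had 8.13, and those with 41 or more had 55.2. The number of sites per window went from 4.08 to 41.7 over these bins, so more sites were there to be chained. The share of sites that lay in clusters was 1.08% (0.692 to 1.60) in windows without a start, 0.852% (0.715 to 1.01) with 1 to 5 starts, 2.33% (2.03 to 2.67) with 11 to 20 and 9.52% (7.92 to 11.3) with 41 or more.

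**Figure D3:**
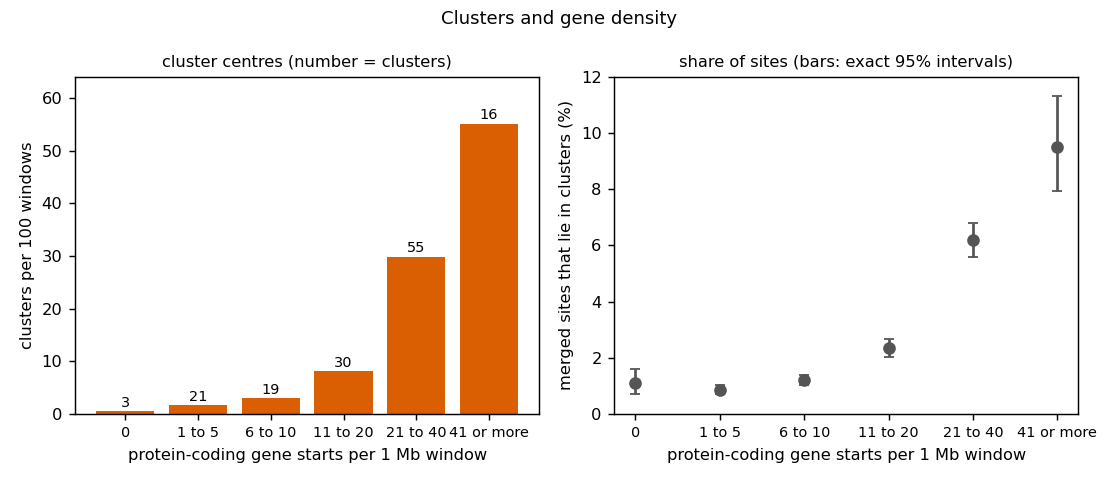
The left panel shows clusters per 100 windows of 1 Mb and the right panel the percentage of merged sites that lie in clusters (bars, exact 95% intervals), both against the number of protein-coding gene starts in the window. The bars go from 0.550 to 55.2 clusters per 100 windows and the points from 0.852% to 9.52%, with 71 of the 144 clusters in windows of 21 or more starts.

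Sharing between the lists also moved with gene density. Where 10 or fewer protein-coding genes started within 1 Mb, distal cluster sites were in both lists in 35.4% (29.4 to 41.9) and distal single sites in 26.5% (25.8 to 27.2). Where 31 or more genes started, these shares were 53.6% (43.2 to 63.8) and 36.3% (32.2 to 40.5). The distal cluster sites with 10 or fewer genes include the pericentromeric repeat clusters described below. In 35 of these 237 sites (14.8%) over 50% of the 31-base words occurred more than once in the reference, against 1.56% of the distal single sites. Their share in both lists without such repeats was not computed. Near start sites the order differed between the extremes: with 10 or fewer genes 45.3% (32.8 to 58.3) of cluster sites and 57.4% (55.7 to 59.1) of single sites were in both lists, and with 31 or more genes 68.7% (62.3 to 74.6) and 67.6% (64.1 to 71.0).

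Chromosome 19 had the most clusters. With 25.03 protein-coding genes per Mb, it had 20 clusters and 7.46% of its merged sites in them. Chromosome 17, next in gene density with 14.6 genes per Mb, had 5 clusters and 1.67% of its sites. Chromosome 9, with 5.66 genes per Mb, had 16 clusters and 4.01%, and chromosomes 8, 21 and X had none, with longest chains of 5, 4 and 5 sites.

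Within clusters, 524 sites (51.3%) had their centre in an intron, 312 (30.6%) between genes, 157 (15.4%) in a non-coding part of an exon and 28 (2.74%) in a coding exon. In 71 clusters at least 50% of the sites lay within 1 kb of a start site, and 73 lay below that, of which 23 had no such site. The promoter-rich clusters had 57.1% of sites in both lists and 1.37 overexpression-only sites per basal-only site. The 73 others had 44.2% and 0.889. Sorted by site instead of by cluster, the ratio in clusters was 1.37 within 1 kb of a start site and 0.935 farther away. Outside clusters it was 1.13 and 0.723. The 0.889 and the 0.935 both include the chromosome 16 repeat cluster, with 17 overexpression-only sites and no basal-only site.

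Clusters of many genes held more overexpression-only sites and clusters inside a single gene more basal-only sites. In 15 clusters 5 or more protein-coding genes started, and their 122 sites comprised 71 in both lists, 13 basal-only (10.7%, 5.80 to 17.5) and 38 overexpression-only (31.1%, 23.1 to 40.2). Among the 15 were the overexpression-tilted clusters at HOXA, ITGA7, H2AC8 and CALR, described below. They gave 7, 6, 5 and 4 of the 38 overexpression-only sites and 1 basal-only site each. The balance without them was not computed. In 11 of the 15 clusters overexpression-only sites were the more numerous and in 4 basal-only sites. Of their sites 96 lay within 1 kb of a start site, of which 9.38% (4.38 to 17.1) were basal-only and 28.1% (19.4 to 38.2) overexpression-only, against 18.6% and 21.02% of such sites outside clusters, of which the second lies within the interval. Wholly inside a protein-coding gene lay 24 clusters, of which 4 overlapped further protein-coding genes, the JUNB cluster among them. The 135 sites of the other 20 comprised 45 in both lists, 63 basal-only (46.7%, 38.0 to 55.4) and 27 overexpression-only (95% interval 13.6 to 27.7%), and basal-only sites were the more numerous in 15 of the 20 clusters. Of these sites 113 lay farther than 1 kb from a start site, of which 48.7% (39.2 to 58.3) were basal-only and 20.4% (13.4 to 29.0) overexpression-only, against 40.8% and 29.5% of such sites outside clusters. The interval of the basal-only share thus includes the share outside clusters, and that of the overexpression-only share lies just below it. The median over clusters of their mean GC content was 59.7% in the first set and 41.3% in the second, and the part of GC content in the difference was not tested.

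Over all clusters, basal-only sites outnumbered overexpression-only sites in 59, the reverse held in 57, and 28 had equal numbers. The median over clusters of their mean GC content was 47.7%, 55.5% and 52.5% in these 3 sets. Condition-only sites in clusters were narrower than sites in both lists, with median widths of 199 bp for either condition-only class and 349 bp for shared sites.

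A cluster was called tilted when it held at least 5 condition-only sites and 80% or more of them came from a single list. Only 27 clusters had that many condition-only sites, and of these 6 were tilted to the basal list, 5 to the overexpression list and 16 to neither. Among the 14 chains just outside the rule, with 5 merged sites that were all condition-only, 50% were tilted to basal and 14.3% to overexpression. Without a minimum, 26 of the 144 clusters were tilted to basal and 33 to overexpression, and 4 held no condition-only site. Among 7263 chains of 2 to 5 sites with a condition-only site, 42.8% and 33.2% met the same limits. This shows how often small numbers of sites pass them. The mean GC content of the sites of a cluster had a median of 40.9% over the basal-tilted clusters (range 34.4 to 53.2) and of 57.6% over the overexpression-tilted ones (35.7 to 64.1).

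**Figure D4:**
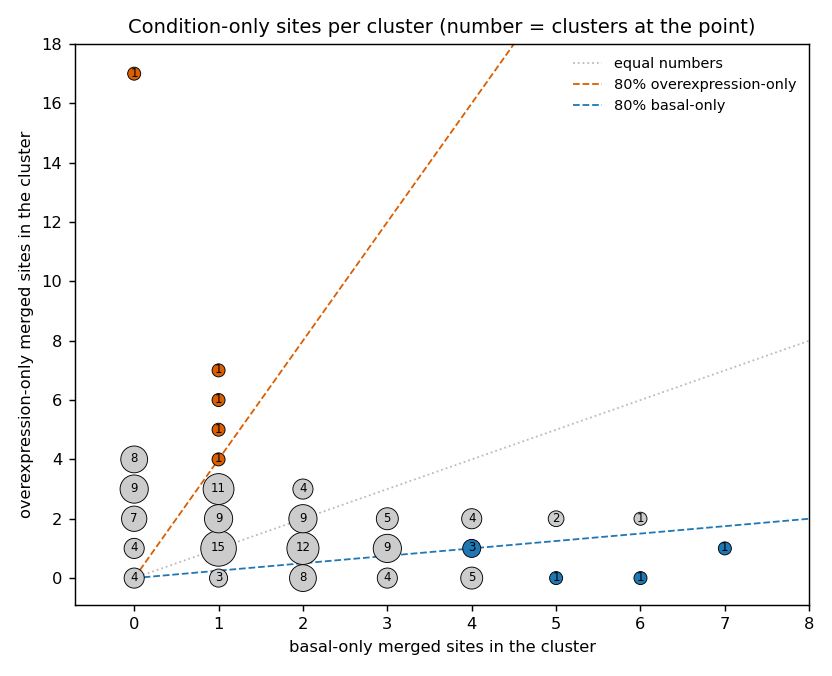
Each point is a pair of counts, basal-only sites (horizontal axis) and overexpression-only sites (vertical axis) in a cluster, with the number of clusters at that point written in it and reflected in its size. Blue and orange points are the 6 and 5 clusters tilted to basal and overexpression, the dashed lines mark 80%, and grey points beyond a dashed line had fewer than 5 condition-only sites.

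The cluster with the most sites lay beside the centromere of chromosome 16 (chr16:46386101-46434849). It held 25 merged sites, of which 8 were in both lists, 17 in the overexpression list only and none in the basal list only. It overlapped no protein-coding gene, and the nearest, SHCBP1, was 177654 bp away. In 24 of its 25 sites over 50% of the 31-base words occurred more than once in the reference. The pentamer ATTCC or its complement occurred 4.71 times per 100 bp (median over sites, range 3.51 to 7.04), a density that 0.0789% of all merged sites reached, and the median over all merged sites was 0. This is the sequence of simple satellite repeats, as printed above, and how the reads of such repeats were placed is not given in the sources used here. Over all 25 sites the median place in the overexpression list was 12.9%. The 8 shared sites stood at 1.82 to 13.5% of that list and at a median of 22.1% of the basal list. The 17 overexpression-only sites ran from 0.0673% to 97.9% of the overexpression list.

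A second pericentromeric cluster, on chromosome 10 (chr10:42380001-42418499), had the same kind of sequence. Its condition-only sites also came from the overexpression list alone, but they were too few for this cluster to be called tilted. It held 12 sites, 9 in both lists and 3 overexpression-only, with a median of 4.31 pentamers per 100 bp, and 3 of the 12 sites were repeated in the sense above. A site of this cluster was number 52 of the basal list and number 17 of the other, among the earliest of either. Clusters on chromosome 2 (chr2:92296651-92316299, 6 sites, all repeated) and chromosome 9 (chr9:66822251-66835199, 6 sites, 2 repeated) lay 1758254 and 949745 bp from the nearest annotated protein-coding gene. In all, 40 cluster sites were repeated, in 8 clusters, 3.92% of cluster sites against 1.70% of all merged sites, and without the chromosome 16 cluster the share was 1.61%.

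With 12 sites, the HOXA cluster and the ITGA7 cluster described below had the most of those outside repeats that were tilted to overexpression, and the HOXA cluster was the longer (chr7:27183201-27240099). Its sites comprised 4 in both lists, 1 basal-only and 7 overexpression-only, and 11 of them lay within 1 kb of a start site. HOXA3, HOXA5, HOXA6, HOXA7, HOXA9, HOXA10, HOXA11 and HOXA13 all started in it. Both libraries had sites at the starts of HOXA5 (basal site 3154, overexpression site 1440) and HOXA7 (26572 and 23135), by HOXA11-AS (7049 and 13719) and by HOXA13 (5139 and 5227). Of the 7 overexpression-only sites, 6 lay between these and 1, by HOTTIP, beyond the HOXA13 site. Those between them included 3 nearest to starts of HOXA10-AS, HOXA10 and HOXA9, and the widest, 399 bp long and 218 bp from a HOXA10 start, was number 4106 of its list and held an SF-1 motif. The only basal-only site, by HOXA9, was 99 bp long and number 32061. No other of the 39 HOX genes looked up started in a cluster, so the 8 (20.5%, 9.30 to 36.5) are a single locus, against 1.24% of all protein-coding genes.

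The histone genes of chromosome 6 gave 4 clusters with 33 merged sites, 16 in both lists, 9 basal-only and 8 overexpression-only. In them started 18 of 69 replication-dependent histone genes (26.1%, 16.3 to 38.1), against 1.24% of all protein-coding genes. This family was looked up after the clusters had been seen. The interval takes the genes as independent, though the 18 lie side by side in 4 clusters of chromosome 6. The 4 clusters differed. The one at H2AC8, H3C6, H1-3, H4C7, H3C7 and H2BC9 (chr6:26216901-26257649) was tilted to overexpression, with 5 sites in both lists, 1 basal-only and 5 overexpression-only. The one at H2BC3, H3C3 and H1-2 (chr6:26033901-26066399) had 3, 3 and 1, the one at H2BC6, H4C4, H3C4 and H2AC7 (chr6:26172001-26204799) had 6, 2 and 1, and the one at H2BC11, H2AC11, H4C9, H2BC12 and H2AC12 (chr6:27094801-27126049) had 2, 3 and 1. In the tilted cluster the site at H3C6 was wide (449 bp) and in both lists (numbers 1702 and 7300), while the overexpression-only sites were 99 to 249 bp wide. Histone genes are near-identical copies, though no site of the tilted cluster was repeated in the sense above.

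A further overexpression-tilted cluster lay on chromosome 12 at ITGA7, BLOC1S1, RDH5 and CD63 (chr12:56101651-56136899), with 5 sites in both lists, 1 basal-only and 6 overexpression-only. ITGA7 encodes a laminin-binding integrin chain and CD63 a tetraspanin of late endosomes. At 2 bp from an ITGA7 start a 249 bp site was listed in overexpression only (number 3145), and further overexpression-only sites lay 47 bp from BLOC1S1 and 29 bp from RDH5 starts. The last of the 5, on chromosome 19, held CALR and GADD45GIP1 among other genes, with 4 sites in both lists, 1 basal-only and 4 overexpression-only. The site 117 bp from the start of CALR, the calreticulin gene, stood at number 381 of the basal and 1374 of the overexpression list, whereas the site 38 bp from GADD45GIP1 (number 7856) was in the overexpression list only.

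Of the 6 basal-tilted clusters, 3 lay inside a single gene. RPGRIP1L, which encodes a protein of the ciliary transition zone, held a cluster of 9 sites (chr16:53695901-53727299), 1 in both lists, 7 basal-only and 1 overexpression-only. None of the 9 was within 1 kb of a start site, and the nearest start belonged to its divergent neighbour FTO for 3 of them. The shared site stood at number 4986 of the basal and 14063 of the overexpression list. Of the 7 basal-only sites, the earliest was number 6058 (399 bp) and the latest number 31819 (249 bp), so they ran through most of the list.

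The cluster at LRRFIP2 was the only one with a single list (chr3:37214151-37226149). All 6 of its sites were basal-only, and 5 of them lay within 1 kb of a start site of LRRFIP2 or of an unnamed transcript. Apart from number 6982 (299 bp wide, 22 bp from a start) they were 149 to 199 bp wide and numbered 19895 to 32487, in the later part of the list. STX18, a SNARE of the endoplasmic reticulum, held a cluster of 6 (chr4:4474101-4494499) with 1 shared, 4 basal-only and 1 overexpression-only site, and MAPKAP1, a subunit of mTOR complex 2, held one of the same make-up (chr9:128300201-128320949). In the MAPKAP1 cluster the shared site was number 277 of the first list and 15671 of the second. An intergenic cluster of 6 on chromosome 7 (chr7:17746401-17772449), 57936 bp from SNX13, had 1 shared and 5 basal-only sites.

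FNDC3B held the longest cluster inside a gene (chr3:172026751-172083099), 56349 bp with 10 intronic sites, none within 1 kb of a start. Its 2 end sites were in both lists (numbers 1142 and 1044, and 6317 and 1814), and between them lay 6 basal-only and 2 overexpression-only sites. With 6 of 8 condition-only sites from the basal list it stayed below the 80% limit.

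In 4 clusters all sites were in both lists. The largest held 8 sites at ODAD1, a gene for docking of ciliary dynein, and EMP3, a membrane protein gene (chr19:48813551-48837449). The 849 bp site over TMEM143 was listed at number 204 (basal) and 432 (overexpression), and the site at the ODAD1 and EMP3 starts was number 544 and 3143. The narrowest, 149 bp, was late in both lists (25041 and 21599), so sharing here was not limited to wide sites. A cluster of 7 at PIGO, STOML2 and ATOSB (chr9:35096101-35117149) had its widest site, 699 bp, at number 110 and 109. The third, of 7 sites at NBPF1 (chr1:16918251-16951799), a gene of a recently duplicated family, had 2 repeated sites, and the fourth, of 6 sites, is the JUNB cluster given below.

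**Figure D5:**
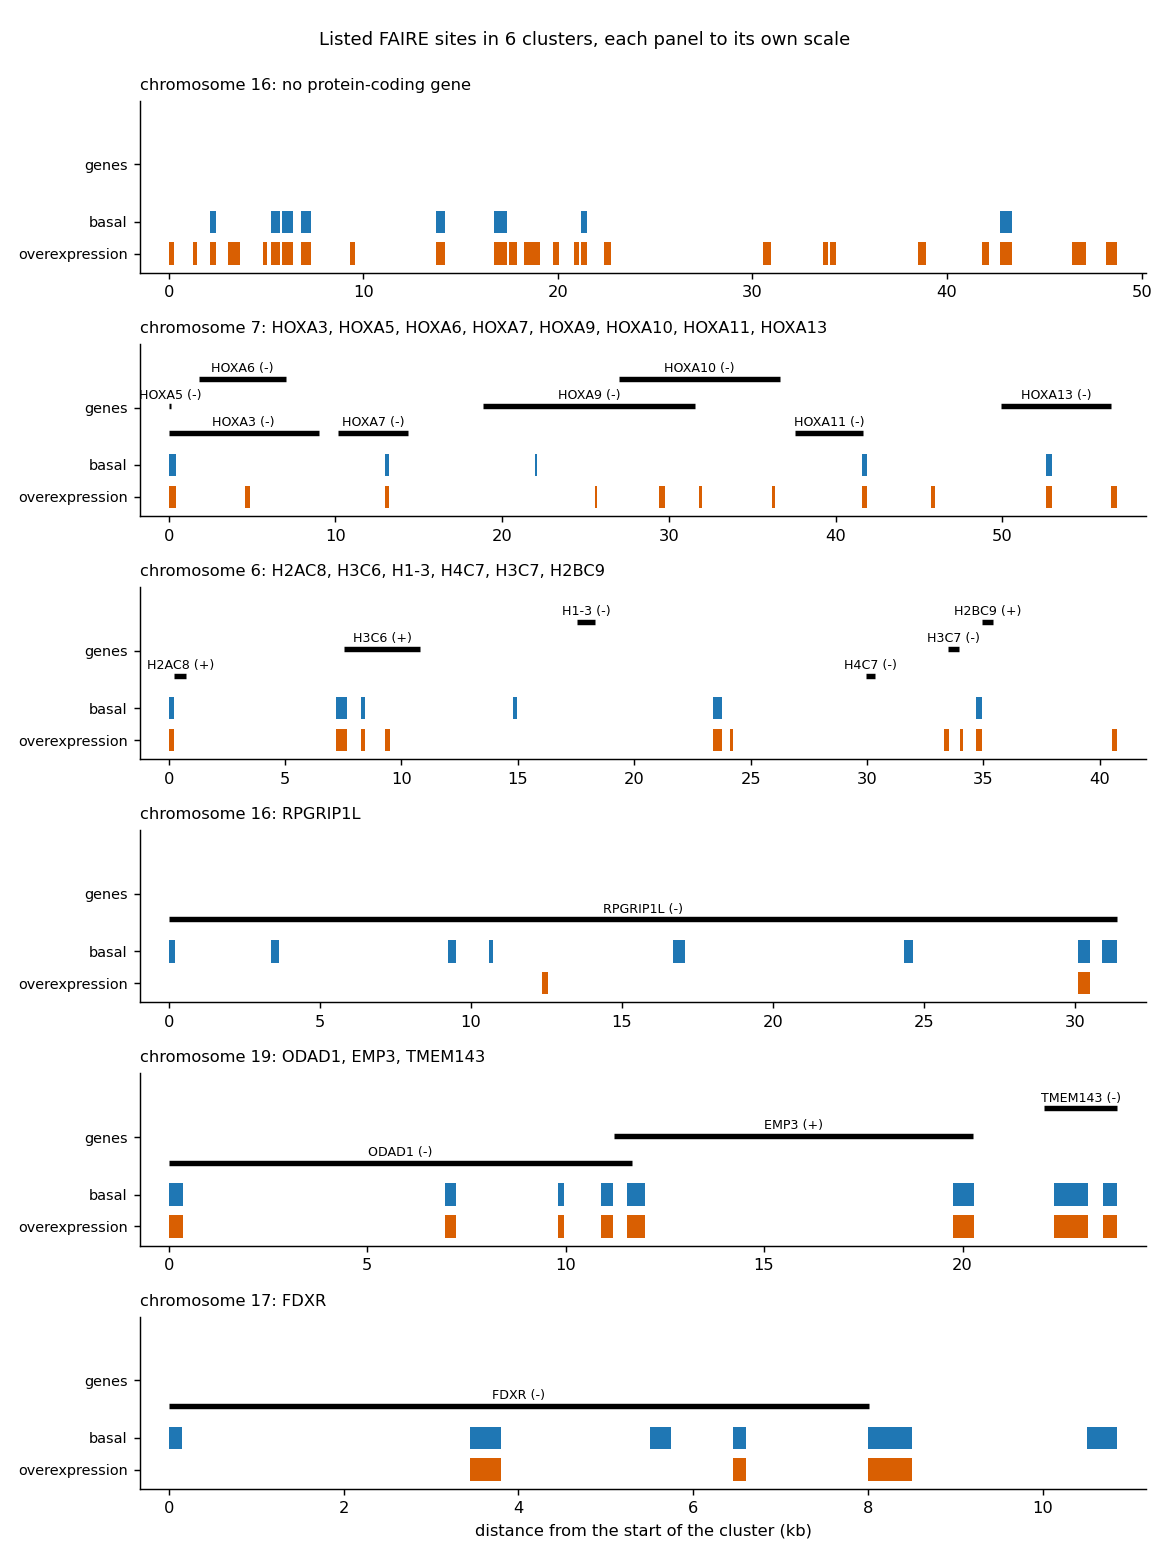
Bars mark the listed sites of the basal (blue) and the overexpression (orange) library in 6 clusters, drawn to scale for each panel against the distance from the cluster start in kb, and black lines mark protein-coding genes with their strand. The 25 overexpression and 8 basal sites of the chromosome 16 repeat cluster and the 11 and 5 of HOXA contrast with the 2 and 8 of RPGRIP1L and the 8 and 8 of ODAD1 and EMP3.

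The densest cluster was at PCNX4, with 6 sites in 4649 bp (chr14:60556651-60561299), 2 of each class, and a shared site 4 bp from the start. The second, 6 sites in 5999 bp, ended just before the start of NEAT1, the RNA scaffold of paraspeckles (chr11:65183901-65189899). It had 2 sites in both lists and 4 overexpression-only, and the site nearest to NEAT1, centred 445 bp away, was overexpression-only (199 bp, number 7460). The neighbouring cluster of 8 sites reached the start of MALAT1, another abundant nuclear RNA (chr11:65236351-65265299), and had 6 sites in both lists and 1 of each other class. Its site 36 bp from the MALAT1 start was in both lists at numbers 4558 and 3622. The third densest, at the translation termination factor gene GSPT1 (chr16:12003951-12010199), had 6 sites in 6249 bp, 1 shared, 3 basal-only and 2 overexpression-only.

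Of 18 genes of steroid synthesis, 1 started in a cluster (5.56%, 0.141 to 27.3), against 1.24% of all 20098 protein-coding genes. That gene was FDXR, the ferredoxin reductase that passes electrons to the mitochondrial P450 enzymes (chr17:72861151-72871999). Its cluster held 6 sites, 3 in both lists, 3 basal-only and no overexpression-only site. The site 244 bp from the start was among the first of both lists (499 bp, numbers 343 and 368). The basal-only site upstream, printed above with its SF-1 and AP-1 matches, was 349 bp wide and number 8045, and the other basal-only sites, 149 and 249 bp, were numbers 18673 and 15587.

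Of 19 genes of cholesterol supply, 1 started in a cluster (5.26%, 0.133 to 26.03), against 1.24% of all protein-coding genes. That gene was LIPE, the hormone-sensitive lipase that frees cholesterol from its esters (chr19:42925751-42954949). That cluster had 5 sites in both lists, 1 basal-only and 2 overexpression-only. A site 57 bp from the LIPE-AS1 start was number 598 and 1595, and an overexpression-only site nearby, 299 bp and number 10269, held an SF-1 motif. LIPE and LIPE-AS1 overlap on opposite strands, and a site cannot be given to either.

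No adrenal transcription factor gene of 18 started in a cluster (upper limit 18.5%). The body of NR4A1, an orphan nuclear receptor induced by ACTH, reached into a cluster of 9 with ATG101 and SMIM41 (chr12:52444951-52477499), with 5 sites in both lists and 2 of each other class. The site 86 bp from the start of an NR4A1 transcript was in both lists (numbers 2079 and 4854) and the one 180 bp from another was basal-only (number 4851). Of 18 immediate early genes 2 started in clusters (11.1%, 1.38 to 34.7), against 1.24% of all protein-coding genes. Both encode subunits of AP-1. All 6 sites of the JUNB cluster (chr19:12900701-12917499, with PRDX2 and RNASEH2A) were in both lists, and the FOSB cluster (chr19:45970801-45989299, with ERCC1 and RTN2) had 5 in both lists and 1 of each other class, the FOSB site of number 1047 and 948 among them. None of 12 protein-coding imprinted growth genes, 19 cell cycle genes or 19 circadian genes started in a cluster.

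Genes whose expression follows SF-1 dose were looked up in the clusters. Their names came from the expression arrays of the study in this cell line, which are other samples. Of 178 genes higher on SF-1 overexpression 2 started in a cluster (1.12%, 0.136 to 4.00), of 87 lower on overexpression none (upper limit of the exact interval 4.15%), of 123 lower on knockdown none (2.95%), and of 78 higher on knockdown none (4.62%). Of all protein-coding genes 1.24% started in a cluster, a share near that of the first list and within the limits of the 3 others. By gene body the numbers were 3, 3, 2 and 0, and of all protein-coding genes 1.55% reached a cluster.

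The 3 genes higher on overexpression that reached a cluster were TNNI3, cardiac troponin I, SLC17A7, a vesicular glutamate transporter, and FITM1, a gene of lipid droplet formation. The TNNI3 cluster (chr19:55667751-55686649) had 5 sites in both lists and 2 overexpression-only, which lay 1 and 115 bp from TNNI3 starts (numbers 20634 and 22963). The SLC17A7 cluster (chr19:49944751-49956999) had 4 in both lists and 2 basal-only, which lay 66 and 83 bp from SLC17A7 starts (numbers 8708 and 12649), so the condition-only sites at these promoters came from opposite lists. The FITM1 cluster had 3 sites in both lists, 2 basal-only and 1 overexpression-only, and the site nearest to FITM1 was in both lists.

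The clusters reached by the 3 genes lower on overexpression held more basal-only than overexpression-only sites. So did 15 of the 20 clusters inside a single gene, a set that includes the SERINC5 and THSD4 clusters. SERINC5 (chr5:79459551-79488749) had 2 sites in both lists, 5 basal-only and 2 overexpression-only, THSD4 (chr15:71716901-71745799) had 4, 4 and 0 in one cluster and 3, 2 and 1 in another, and the cluster at the metallothionein genes MT3 and MT2A (chr16:56624801-56644399) had 2, 3 and 1. In the MT cluster a site 71 bp from MT2A was basal-only (number 16568). MT3 reached into that cluster only by its end, at 56625000. Of the genes lower on knockdown, FABP3, a fatty acid-binding protein gene (chr1:31819051-31848099), had 2, 1 and 3, with an SF-1 motif in 3 of the 6 sites. SEMA7A, a semaphorin gene (chr15:74698201-74719549), had 2, 0 and 4, with the motif in 3 sites, 2 of them overexpression-only and 670 and 2070 bp from a SEMA7A start. The motif was in 2 of 9 sites at SERINC5, 0 of 8 and 1 of 6 at THSD4, and 2 of 6 in the MT cluster. It was in 0 sites of the TNNI3, SLC17A7 and FITM1 clusters, and in 12.6% of all cluster sites. No test was made over these clusters.

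SF-1 motifs were found in 129 of 1021 cluster sites (12.6%, 10.7 to 14.8) and in 13.2% of single sites, 13.5% in chains of 2 to 3 and 13.8% in chains of 4 to 5. Within 1 kb of a start site the share was 8.74% (6.35 to 11.7) in clusters and 6.36% (5.78 to 6.98) for single sites, and farther away 15.9% (13.0 to 19.3) and 15.6% (15.1 to 16.1). A composition control with the same letters (GACATGCA or GACACGCA) was found in 1.27% of cluster sites and 1.01% of all merged sites. GACACGCA holds C and G side by side in that order, unlike either word of the SF-1 motif, so equal letters need not give equal rates. The motif was in 86 of the 144 clusters, and the most, 4 sites, were in the cluster at SEMA4B on chromosome 15 (chr15:90701151-90735799, 8 sites), which is named because it had this maximum.

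By class the motif was in 11.4% (8.82 to 14.5) of shared cluster sites, 13.9% (9.85 to 18.9) among basal-only and 13.8% (9.85 to 18.6) among overexpression-only sites, with intervals that overlap throughout. AP-1 motifs differed more. They were in 28 of 244 basal-only cluster sites (11.5%, 7.76 to 16.2) and in 8 of 261 overexpression-only ones (3.07%, 1.33 to 5.95), and outside clusters in 7.70% (7.29 to 8.13) and 5.05% (4.67 to 5.45). The basal-only and overexpression-only cluster sites also differed in GC content, 46.1% and 53.0% on average, and in closeness to start sites, 30.7% and 39.5% within 1 kb, and the part of either in the AP-1 shares was not tested.

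Sites with both an SF-1 and an AP-1 motif numbered 22 in clusters (2.15%, 1.36 to 3.24) and 603 among all merged sites (1.29%, 1.19 to 1.39). Farther than 1 kb from a start site they made up 3.62% (2.23 to 5.54) of cluster sites and 1.66% (1.52 to 1.81) of all. The FDXR and ODAD1 sites printed above, which were chosen for their SF-1 motif, are of this kind. Motifs were searched over the whole site, and the median width was 299 bp in clusters and 249 bp over all merged sites. Farther than 1 kb it was 249 bp both in and outside clusters. The part of width in the shares with both motifs was not tested.

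CTCF motifs, for the factor that bounds chromatin loops, were less frequent in longer chains. The consensus with up to 1 mismatch was found in 18.2% (17.7 to 18.7) of single sites, 15.04% in chains of 2 to 3, 13.1% in chains of 4 to 5 and 11.3% (9.39 to 13.4) of cluster sites. The order was the same farther than 1 kb from a start site, with 20.4% (19.8 to 20.99) of single and 12.9% (10.2 to 15.9) of cluster sites. Within 1 kb the shares were 11.9% and 9.38% (6.90 to 12.4), an interval that includes the single share. Where 31 or more genes started within 1 Mb, distal shares had no steady order. By rising chain size they were 29.1%, 22.4%, 25.3% and 23.7% (15.7 to 33.4). The ITGA7 and CD63 cluster had the motif in 4 of 12 sites and the RPGRIP1L cluster in none of 9.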

How the data were processed

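FAIRE-seq was performed on H295R/TR SF-1 cells in 2 conditions, and 1 list of sites per condition was used. The deposited lists are browser tracks per the file headers, and their score column holds 1000 throughout as the authors deposited it, which leaves no measure of height. Per the submitters' processing notes the reads went through CASAVA 1.8 and the build was hg19. The study's methods name ELAND for mapping immunoprecipitated DNA and do not say whether the FAIRE reads were mapped likewise. The peak caller and threshold of the FAIRE lists are not given in the sources used here, nor is the handling of reads that map to several places. Each library had its own list, and starts fell on a 50 bp grid. The lists held 34423 and 31219 sites, of which those on chromosomes 1 to 22 and X were used. Read counts are not given.

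Sites overlapping by 1 bp or more were merged with Python 3.11.15, pandas 2.3.3 and numpy 2.4.6. A merged site was shared when it held a site of both lists and condition-only otherwise. Chaining and merging were tested on simulated lists, and every planted cluster was recovered. Genes and start sites came from GENCODE release 44 mapped to GRCh37, with 20098 protein-coding genes, and the distance to a start site was taken from the site centre. GC content, 31-base words found more than once in the reference, and motifs were read with pysam 0.24.0 over the whole site. Unnamed genes are those without a symbol. Exact (Clopper-Pearson) 95% intervals came from scipy 1.17.1.

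The clusters, the lists of genes and the alternatives were chosen with earlier results of these data known. Named clusters were the 6 with most merged sites, the 3 longest, the 3 densest, the 5 tilted to each list with most condition-only sites and the 3 largest without any, together with those holding a listed gene. Some clusters and sites that this rule names are not reported here. Clusters at NEAT1, MALAT1, SEMA4B and the histone genes, on chromosomes 2 and 9, and those around start-rich or single genes as sets, were looked at after the values had been seen. The alternatives changed the gap, the minimum of sites, the sites that entered, the overlap rule and the tilt limit. An alternative on soft-masked repeats was replaced by repeated 31-base words, after seeing the data, because the reference carries no soft mask. Left out were sites on other chromosomes and the input libraries.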

Additional observations from a re-analysis of the deposited data

How the results depend on the processing

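Of 51 recomputed values of 8 results, 21 stayed within their limits and 30 moved. No paired analysis was possible because each condition had 1 library. The number of clusters (144) followed the rule: 30 with a gap under 5 kb, 680 under 20 kb, 35 with 8 or more sites, 374 with 5 or more, 27 with the upper 50% of each list, 27 without sites within 1 kb of a start, and 47 from the basal and 57 from the overexpression list alone. The share in both lists (50.5%) was 40.9% without sites near starts and 58.2% when sites within 500 bp of the other list counted as shared.

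Tilted clusters (6 basal, 5 overexpression) numbered 1 and 3 with a gap under 5 kb, 63 and 37 under 20 kb, and 3 and 1 without sites near starts. Basal-tilted ones numbered 1 with 8 or more sites or the upper 50% of each list, and 13 with 5 or more sites. At 90% they numbered 2 and 1, without a minimum 26 and 33, and over all merged sites of a cluster 2 and 0. The tilt lists are thus short and follow their limits. Sites near starts were 39.5% with protein-coding starts alone and 56.7% within 2 kb. The SF-1 motif was in 15.9% of distal cluster sites. Gene bodies reached clusters in 1.55% of protein-coding genes. The median number of gene starts in 1 Mb around clusters, divided by that around single sites, was 2.86 for protein-coding and 1.93 for all genes. Leaving out repeated sites, added after seeing the data, left 140 clusters and 4 tilted to overexpression. Depth is unknown, so a site missing from a list may have been missed.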

Other observations

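Clusters away from promoters were looked at after the values had been seen. When sites within 1 kb of a start site were left out before chaining, 27 clusters remained. All 27 lay within clusters of the full rule, which follows from leaving sites out and is not a result. Their 208 sites comprised 85 in both lists, 69 basal-only and 54 overexpression-only. In 17 of the 27 basal-only sites were the more numerous, in 7 overexpression-only sites, and 3 had equal numbers. Overexpression-only sites numbered 0.783 per basal-only site, against 0.723 among sites farther than 1 kb from a start outside clusters, and 0.536 without the chromosome 16 repeat cluster, which gave 17 of the 54. The 27 included clusters inside FNDC3B, SERINC5, THSD4 (2 clusters), MAPKAP1, TEC, CHN2, SH3BP5, NALF1 and RPGRIP1L, the last with all 9 sites. The cluster at IRS2 (chr13:110429651-110444049), which encodes an insulin receptor substrate, had 8 sites, 3 in both lists, 3 basal-only and 2 overexpression-only. At WHRN (chr9:117196201-117213699) there were 3 in both lists and 3 overexpression-only. An intergenic cluster on chromosome 15, 166149 bp from NDN, had 3 in both lists and 4 overexpression-only.

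Ribosomal protein genes, which lie scattered over the genome, were also looked up after the clusters had been seen. Of 84 such genes, 4 started in a cluster (4.76%, 95% interval 1.31 to 11.7), namely RPS27, FAU, RPL41 and RPLP1, and of all protein-coding genes 1.24% did.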
